A study of Homo sapiens with 24 samples.

Results

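The keratin genes were followed across 24 RNA-seq libraries of human osteosarcoma cells. Members were all entries of the count files whose gene name is KRT followed by a number and at most a single letter, which excludes the keratin-associated proteins. Of 66 matching entries, 10 carried pseudogene names ending in P and were left out, and 56 of the 57820 genes in the files remained. These 56 entries have 55 symbols, because KRT222 is listed under both ENSG00000264058.1 and ENSG00000213424.4. They comprise 30 type I and 26 type II genes. In hg19, 29 of the type I genes lie at chr17:38785049-39781094, and all type II genes lie at chr12:52562780-53346685 together with the type I gene KRT18.

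RNA was analyzed from WT and ID3-KO cells in 8 groups of 3 biological replicates. AID-DIvA U2OS cells, which carry an inducible restriction enzyme that cuts the genome at defined sites, were untreated, or were exposed to mocetinostat for 24 h and then kept in drug-free medium for 24 h (after recovery). Cells labelled U2OS were untreated or exposed to mocetinostat for 24 h and collected before recovery. Mocetinostat inhibits class I histone deacetylases, and its dose in this experiment is not given in the sources used here. Stage and line label coincide, so that effects of recovery and of the line cannot be told apart, although the library names of the U2OS samples also contain DivA. In the AID-DIvA samples the treatment field goes against the sample titles, and the titles were followed. Beyond the knockout, nothing in the labels states whether the ID3-KO cells are a single clone, so differences between genotypes may include differences between isolates.

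Keratins are the intermediate filament proteins of epithelial cells, and each filament is built from pairs of a type I and a type II chain. KRT8 and KRT18 form the filaments of simple epithelia, and KRT20 is a type I keratin of intestinal epithelium, urothelial surface cells and Merkel cells. Further members belong to the basal and upper layers of stratified epithelia or to hair. ID3 is an inhibitor of basic helix-loop-helix transcription factors, which bind E-box motifs.

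Total counts ran from 37878751 to 76906266 per library, and levels are given as CPM, the reads of a gene scaled to a common library size. ID3 transcripts were lower in KO than in WT cells of the same condition but were present, with group means of 30.6 to 64.8 CPM in KO and 50.4 to 119 CPM in WT cells. The transcript count therefore does not by itself check the loss of the protein. For the protein, the paper reports that knockout efficiency was checked by Western blot. Mesenchyme markers summed to between 1006 and 1670 CPM per library, with ZEB2 and TWIST1 below detection in every group. Osteoblast lineage markers summed to between 1771 and 4150 CPM, while the lineage factor SP7 and IBSP were below detection in every group. Replicate 1 of untreated U2OS WT cells stood apart from both other replicates (chi-square per gene 92.4 and 82.0, against at most 24.5 for any other pair of replicates), and the keratin calls that changed without it are given below.

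U2OS cells expressed a small part of the keratin family. A member was counted as detected in a group at 0.5 CPM or more in at least 2 of 3 libraries. By this measure 20 of the 56 keratins were detected in at least 1 group, 10 were detected in every group and 36 in none. In AID-DIvA cells, 13 keratins were detected in untreated WT, 16 in WT after recovery, 12 in untreated KO and 15 in KO after recovery. In U2OS cells, 13 were detected in untreated WT, 19 in treated WT, 13 in untreated KO and 17 in treated KO. Each treated group thus had more detected keratins than its untreated control. KRT20 and KRT79 were detected in all treated and in no untreated groups, while KRT78, KRT32 and KRT9 were detected in some treated groups only.

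The 10 keratins detected in every group were KRT7, KRT8, KRT10, KRT17, KRT18, KRT34, KRT75, KRT80, KRT81 and the entry ENSG00000264058.1 of KRT222. That entry should be set aside: of its 4937 reads over all libraries, 56 lay on the strand of the gene and 4881 on the opposite strand, so that its group means of 2.32 to 4.49 CPM are nearly all from antisense reads. KRT5, a basal keratin, had 83 of 413 reads on its own strand, KRT6B 44 of 235 and KRT40 30 of 188. In the other 18 keratin entries with 308 reads or more over all libraries, own-strand counts were at least 0.961 of the counts from either strand. This ratio does not exclude opposite-strand reads: KRT8 had 284145 reads on its own strand and 85363 on the opposite strand. Among entries with fewer reads, KRT23 had 273 and 211 and KRT12 118 and 36. The treatment calls of KRT23 held with own-strand counts (log2 changes 2.82 to 5.65). With counts of the own strand, detected keratins numbered between 11 and 18 per group.

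By site of expression, both simple type II keratins (KRT7, KRT8) were detected, and 2 of 4 simple type I keratins (KRT18, KRT20). Of the 11 type I hair keratins, KRT32, KRT33B and KRT34 were detected, and of the 6 type II hair keratins KRT81 and KRT86. None of the 8 inner root sheath keratins was detected. Members detected in no group had a highest group mean of 0.514 CPM, and KRT26 had no read in any library. KRT19 and KRT13, which are abundant in many epithelia, were in this set.

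A few type II genes held most of the keratin RNA. Levels of different genes were compared as CPM per kb of exonic length. This length was 4350 bases for KRT80, 5005 for KRT8 and 3218 for KRT18, and the length of the expressed transcripts was not measured. Ranks and shares depend on it. Either-strand counts also leave out reads that overlap another gene. KRT18 had 160149 such counts against 258345 on its own strand, and KRT8 271940 against 284145. In untreated cells the highest mean was that of KRT80, a widely expressed epithelial type II keratin, at 117 CPM per kb in WT and 183 in KO AID-DIvA cells and at 98.8 in WT and 174 in KO U2OS cells. In untreated KO AID-DIvA cells KRT80 (183 ± 10.3) and KRT81 (181 ± 27.6 CPM per kb, SD, n = 3) differed by less than the spread between replicates. The leading 4 keratins, which were KRT80, KRT81, KRT8 and KRT18 except in treated U2OS WT cells, made up between 68.3% and 93.8% of the keratin sum per kb. With either-strand counts, summed type II levels exceeded summed type I levels in all groups, by 193 ± 5.46 to 53.2 ± 0.295 CPM per kb (SD, n = 3) in untreated WT and 407 ± 41.7 to 56.0 ± 2.41 in untreated KO AID-DIvA cells. The gap was smallest in treated U2OS WT cells (136 ± 1.29 to 112 ± 4.67). Type I sums lack the KRT18 reads that overlap KRT8, and no sums were made with own-strand counts. After treatment and recovery, the type I sum stood at 108 ± 1.67 in WT and 132 ± 12.2 in KO cells, with no overlap with the untreated libraries. In U2OS cells collected under treatment it stood at 112 ± 4.67 against 68.4 ± 9.35 in untreated WT and at 81.5 ± 5.49 against 62.4 ± 1.78 in untreated KO cells, also without overlap. The type I sum was thus higher in all 4 treated groups than in their controls. The type II sum after recovery was 268 ± 35.4 in WT cells, above all untreated libraries, and 453 ± 32.3 in KO cells, with overlap. In treated U2OS cells the type II sum was lower than in untreated cells in both genotypes (136 ± 1.29 against 178 ± 18.0 CPM per kb in WT, 202 ± 15.6 against 370 ± 6.24 in KO).

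**Figure D1:**
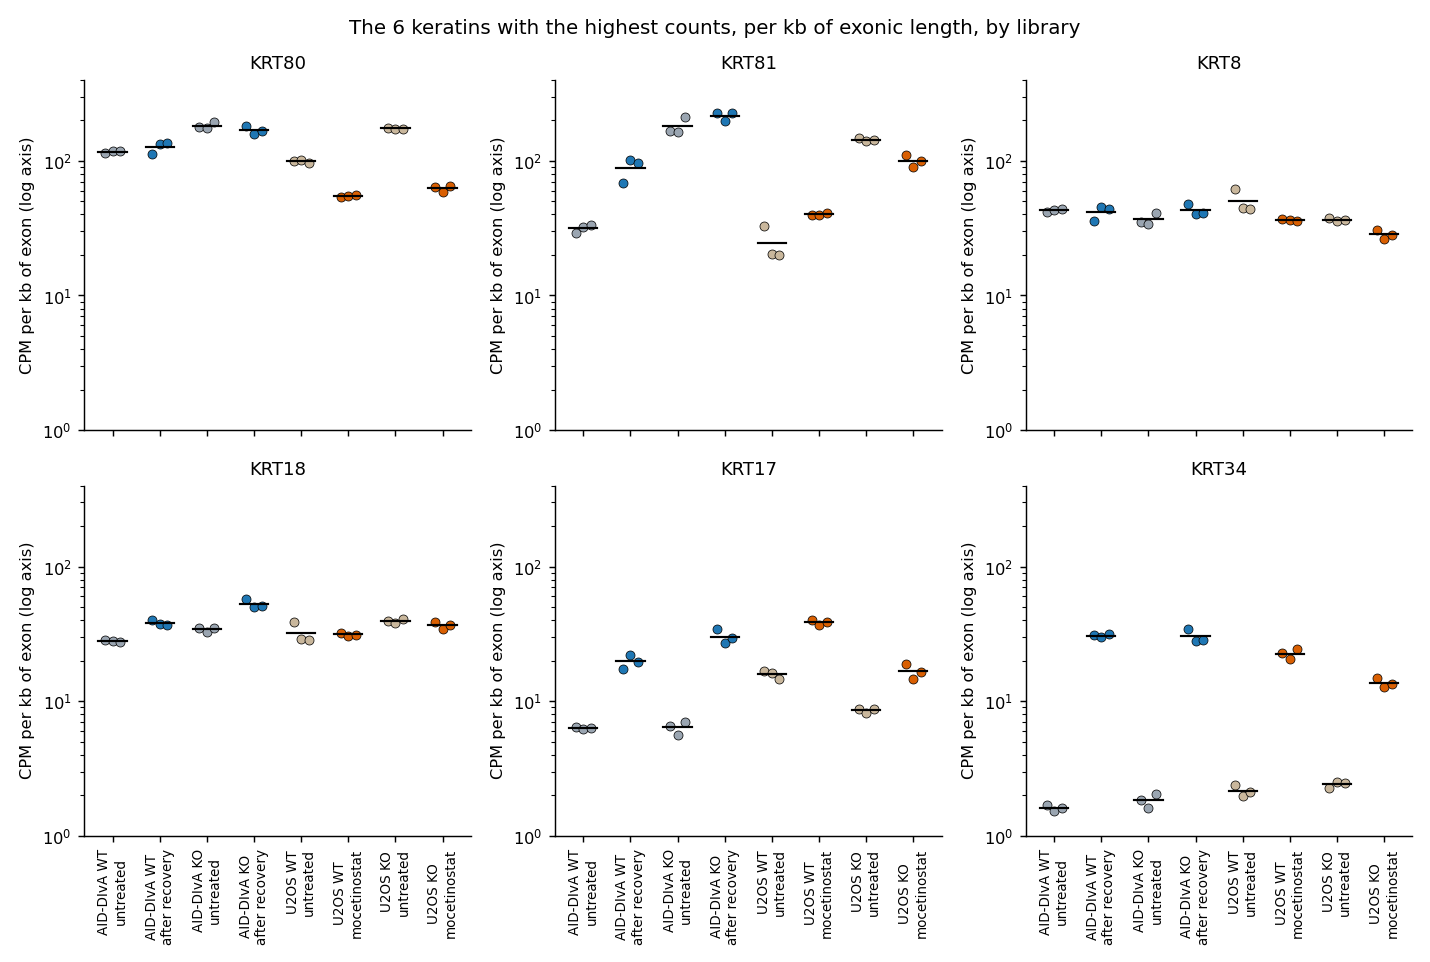
Levels of KRT80, KRT81, KRT8, KRT18, KRT17 and KRT34 in all 24 libraries, as CPM per kb of exonic length on a log axis, by group. Points are libraries and bars are means of 3 libraries. KRT80 falls from 174 to 62.4 CPM per kb in U2OS KO cells under treatment, KRT81 is higher in KO than in WT cells in every condition, and KRT34 has means of 1.61 to 2.42 CPM per kb in the untreated and 13.7 to 30.8 in the treated groups.

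Each genotype was first compared with its own untreated control, which addresses how the keratins respond to mocetinostat. In WT AID-DIvA cells after recovery, 20 members passed the filter on low counts and 10 of these were higher and 2 lower (background 4.86% of all genes tested higher and 2.52% lower). In KO AID-DIvA cells, 10 of 21 were higher and 1 lower (background 4.90% and 2.56%). Before recovery, 12 of 23 were higher and 1 lower in U2OS WT cells (background 13.6% and 5.06%), and 12 of 26 were higher and 3 lower in U2OS KO cells (background 14.6% and 5.77%). A gene was called at adjusted p below 0.05 and a log2 change beyond 1 in either direction. Genes that pass the filter only through their treated libraries had to differ, and 3, 4, 4 and 10 of the calls in these comparisons had fewer than 10 counts in every library of the lower group. The median log2 change of the members tested was 1.09, 0.77, 1.08 and 0.89, against medians of all genes between -0.02 and 0.01.

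Over the 4 comparisons, which share no library, 17 keratins were higher in at least 1 comparison, 5 were lower in at least 1 comparison and none was called both ways. These counts include KRT40 among the higher and KRT6B among the lower calls, both with most reads on the opposite strand. Of the 17, 6 lie in the chromosome 12 cluster and 11 on chromosome 17. KRT15, KRT20, KRT34, KRT79 and KRT86 were higher in all 4.

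KRT20 (ENSG00000171431.3, chr17:39032193-39041479 in hg19, minus strand) went from almost no reads to a moderate level. In untreated AID-DIvA cells the 3 WT libraries held 2, 1 and 0 reads of KRT20 and the 3 KO libraries 1, 0 and 1. After recovery, WT libraries held 100, 112 and 130 reads (1.88, 2.58 and 2.39 CPM) and KO libraries 239, 307 and 208 (6.81, 4.64 and 4.51 CPM). No treated library overlapped with an untreated library. The ratio of the summed counts, scaled to the libraries, was 129 in WT (exact 95% interval 43.8 to 629) and 471 in KO cells (130 to 3899), where the intervals cover counting error only. The fitted log2 changes were 6.85 ± 0.38 (SE, adjusted p = 1.1e-08) and 8.64 ± 0.38 (adjusted p = 3.6e-07). Their size depends on the prior count given to the nearly empty libraries. These SE are derived from the test statistic and understate the error, since the counting intervals alone are wider.

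Before recovery KRT20 was also higher in treated than in untreated cells of both genotypes. Untreated U2OS WT libraries held 6, 3 and 11 reads and treated libraries 616, 456 and 903 (9.41, 9.05 and 11.9 CPM), a log2 change of 6.56 ± 0.33 (adjusted p = 5.1e-06). Untreated KO libraries held 0, 2 and 4 reads and treated libraries 361, 316 and 369 (6.07, 5.79 and 5.58 CPM), a log2 change of 7.26 ± 0.26 (adjusted p = 7.0e-17). Here too the SE understate the error, because the untreated libraries held so few reads. Per kb of exonic length, KRT20 reached 5.48 CPM in treated U2OS WT cells, below KRT34 and KRT17 in the same libraries (22.6 and 38.6). Of all 4148 reads of KRT20, 4138 were also counted on the strand of the gene.

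The genotypes differed in the level of KRT20 in treated cells, and in opposite directions in the 2 lines. After recovery KO libraries were higher by 1.19 ± 0.18 on the log2 scale (adjusted p = 7.7e-04). Before recovery they were lower by a log2 difference of -0.81 ± 0.09 (adjusted p = 3.6e-08), which stays within the fold threshold. The difference between these genotype differences was not tested. Neither the genotype by treatment interaction (log2 1.79 ± 1.47, adjusted p = 0.68 in AID-DIvA and 0.71 ± 0.75, adjusted p = 0.74 in U2OS cells) nor the difference between the stages passed the threshold for KRT20 (0.30 ± 0.73, adjusted p = 0.78 in WT and 1.38 ± 1.17, adjusted p = 0.34 in KO cells). With so few untreated reads these terms have wide errors.

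The promoters of 34 of the 55 keratin symbols were found in the RefSeq promoter table used here, whose build is GRCh38.p14. The 250 bases before the transcription start are shown for the keratins higher in all 4 comparisons that have an entry (KRT20, KRT34, KRT79) and for KRT75, which was higher after recovery only. Capitals mark the letters ATAAAA or their reverse complement TTTTAT, the core of many TATA boxes, on either strand. KRT15 and KRT86 had no entry. All 4 genes are on the minus strand and each sequence runs 5′ to 3′ toward the start.
KRT20, chr17:40885243-40885492: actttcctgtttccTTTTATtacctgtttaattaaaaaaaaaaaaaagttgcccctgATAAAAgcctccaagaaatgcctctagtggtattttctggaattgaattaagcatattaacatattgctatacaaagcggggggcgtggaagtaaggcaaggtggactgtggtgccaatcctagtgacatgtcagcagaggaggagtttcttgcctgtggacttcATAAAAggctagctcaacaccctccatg
KRT34, chr17:41382307-41382556: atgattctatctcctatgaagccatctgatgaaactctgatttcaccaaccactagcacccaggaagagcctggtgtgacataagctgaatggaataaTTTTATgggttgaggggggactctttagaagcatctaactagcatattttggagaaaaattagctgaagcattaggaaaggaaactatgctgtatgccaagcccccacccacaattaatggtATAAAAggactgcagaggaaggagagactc
KRT79, chr12:52834312-52834561: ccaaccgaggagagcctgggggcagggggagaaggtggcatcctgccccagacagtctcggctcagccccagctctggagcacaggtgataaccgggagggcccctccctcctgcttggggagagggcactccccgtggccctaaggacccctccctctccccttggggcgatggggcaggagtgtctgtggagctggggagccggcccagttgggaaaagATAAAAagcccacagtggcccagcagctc
KRT75, chr12:52434372-52434621: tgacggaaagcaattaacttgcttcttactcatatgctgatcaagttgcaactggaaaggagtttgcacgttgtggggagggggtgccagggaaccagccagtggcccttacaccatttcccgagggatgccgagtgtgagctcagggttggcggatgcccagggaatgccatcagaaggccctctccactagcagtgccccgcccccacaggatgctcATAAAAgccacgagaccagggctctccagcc

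All 4 promoters have ATAAAA close to the start, beginning 28 (KRT20), 30 (KRT34), 29 (KRT79) and 31 (KRT75) bases before it. In the 50 bases before the start, 14 of the 34 keratin promoters (41.2%) held the motif on either strand, against 3.44% of the 35116 promoters of the table. The 14 include KRT25, KRT28, KRT74 and KRT82, which were detected in no group. Of the 9 keratins with a promoter that were called higher in at least 1 treatment comparison, 5 held the motif in this window. Whether the motif goes with the response was not tested. The E-box CACCTG, searched on both strands with its complement CAGGTG, was in 17.6% of keratin promoters over 250 bases and in 17.5% of all promoters, and CAGCTG was in 14.7% and 14.0%. These are matches of letters only.

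KRT34, a type I hair keratin, was the most abundant of the 5 keratins higher in every comparison. Untreated AID-DIvA libraries held 2.95, 2.70 and 2.83 CPM in WT and 3.25, 2.83 and 3.57 CPM in KO cells. After recovery they held 54.6, 52.2 and 55.0 CPM in WT and 60.5, 48.9 and 50.3 CPM in KO cells. The log2 changes of KRT34 were 4.26 ± 0.07 (adjusted p = 1.4e-13) in WT and 4.05 ± 0.11 (adjusted p = 3.5e-08) in KO cells. The treated groups of both genotypes overlapped with each other and lay far above the untreated groups.

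In U2OS cells KRT34 responded less, and less in KO than in WT cells. Untreated libraries held 4.15, 3.49 and 3.73 CPM in WT and 3.98, 4.37 and 4.35 CPM in KO cells, while treated libraries held 39.7, 36.3 and 42.9 CPM in WT and 26.0, 22.5 and 23.6 CPM in KO cells. The log2 changes were 3.40 ± 0.11 (adjusted p = 9.5e-07) and 2.51 ± 0.08 (adjusted p = 5.2e-18). The difference between the genotypes in this response passed the test (interaction -0.88 ± 0.13, adjusted p = 0.0019). The response after recovery exceeded the response before it by 0.86 ± 0.13 in WT (adjusted p = 9.6e-05) and by 1.54 ± 0.14 in KO cells (adjusted p = 4.7e-08).

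KRT15, a type I keratin of basal epidermal and hair follicle stem cells, was lower in KO cells but responded in both genotypes. WT AID-DIvA libraries held 0.849, 1.08 and 1.17 CPM untreated and 13.8, 7.76 and 7.82 CPM after recovery (log2 change 3.24 ± 0.29, adjusted p = 7.0e-05). KO libraries held 0.412, 0.465 and 0.472 CPM untreated and 3.08, 2.96 and 2.58 CPM after recovery (2.67 ± 0.14, adjusted p = 1.0e-06). In U2OS cells the log2 changes were 2.85 ± 0.19 in WT and 3.01 ± 0.19 in KO cells (adjusted p = 1.9e-05 and 1.6e-12). No treated KRT15 value overlapped with its untreated control.

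KRT79, a type II keratin of the hair follicle opening and sebaceous duct, went from 0.218 ± 0.0211 to 2.81 ± 0.610 CPM (SD, n = 3) in WT and from 0.0880 ± 0.0229 to 1.49 ± 0.167 CPM in KO AID-DIvA cells. The log2 changes were 3.70 ± 0.22 (adjusted p = 2.7e-08) and 4.08 ± 0.25 (adjusted p = 1.9e-06). In U2OS cells it rose by 1.24 ± 0.31 in WT (adjusted p = 0.012) and 3.86 ± 0.36 in KO cells (adjusted p = 2.0e-09). The WT call was lost without replicate 2 of treated U2OS WT cells (1.13, adjusted p = 0.051).

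KRT86, a type II hair keratin, was at 1.08 CPM or less in every untreated group and between 1.04 and 2.51 CPM in treated groups. Its log2 changes were 1.23 ± 0.23 and 1.21 ± 0.14 in WT and KO AID-DIvA cells (adjusted p = 5.8e-04 and 1.5e-04) and 2.68 ± 0.20 and 1.12 ± 0.16 in WT and KO U2OS cells (adjusted p = 2.9e-05 and 1.5e-06). KRT81, KRT83 and KRT86 are close paralogs, and KRT86 spans KRT81 and overlaps KRT7, so that reads could be assigned among them wrongly. The counts of these 3 genes are therefore uncertain.

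**Figure D2:**
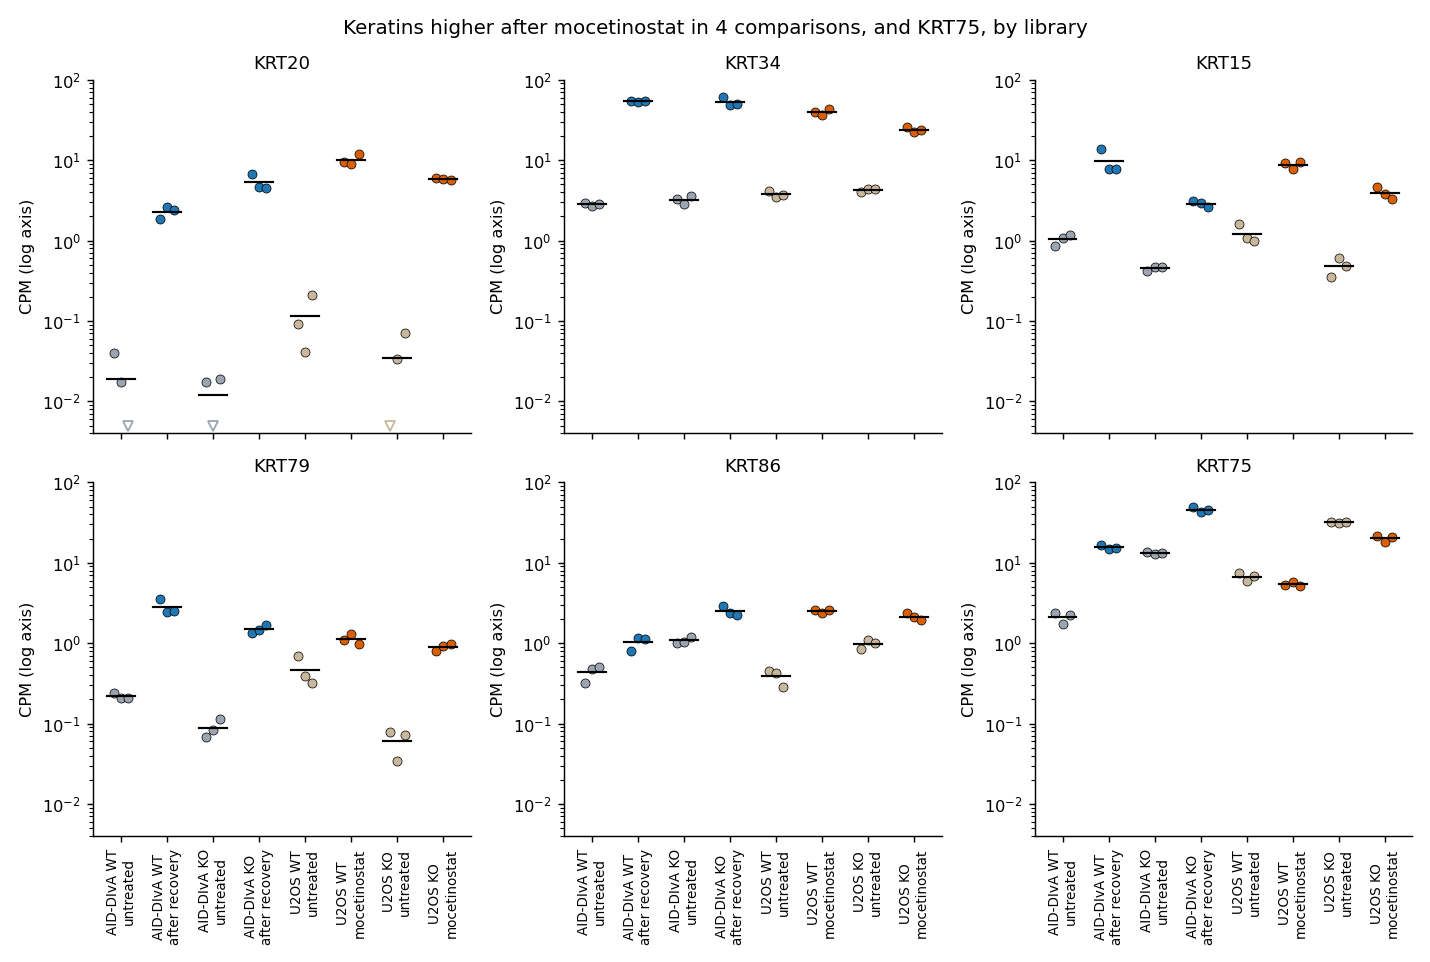
CPM of KRT20, KRT34, KRT15, KRT79, KRT86 and KRT75 in every library, on a log axis, by group. Points are libraries, bars are means of 3 libraries and open triangles at the bottom are libraries with no read. Every treated group of the first 5 genes lies above its own untreated group, from 0.0350 to 5.82 CPM for KRT20 in U2OS KO cells for example, while KRT75 is above its control in the AID-DIvA cells only.

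KRT75, KRT7 and KRT17 rose more after recovery than before it, although KRT17 in both genotypes and KRT7 in WT cells also rose before it. KRT75, a type II keratin of the hair follicle companion layer, was at 2.34, 1.74 and 2.26 CPM in untreated WT and 16.4, 14.9 and 15.1 CPM in WT AID-DIvA cells after recovery (log2 change 2.89 ± 0.10, adjusted p = 1.8e-10). In KO cells it was at 13.6, 12.7 and 13.3 CPM before and 49.7, 43.0 and 44.9 CPM after (1.80 ± 0.07, adjusted p = 2.2e-07). In U2OS cells it went the other way, within the fold threshold: by -0.31 ± 0.12 in WT (adjusted p = 0.068) and -0.65 ± 0.06 in KO cells (adjusted p = 3.6e-09). The difference between the responses was 3.19 ± 0.17 in WT and 2.44 ± 0.11 in KO cells (adjusted p = 2.6e-08 and 4.5e-12). Reads of KRT75 on its own strand numbered 1.14 times those from either strand, because reads that overlap another gene are left uncounted in the latter.

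KRT7, a type II keratin of glandular epithelia, and KRT17, a type I keratin of wounds and skin appendages, also responded after recovery. KRT7 went from 1.30 ± 0.0258 to 6.34 ± 0.673 CPM in WT and from 2.19 ± 0.301 to 12.1 ± 1.70 CPM in KO AID-DIvA cells, log2 changes of 2.30 ± 0.12 (adjusted p = 5.0e-09) and 2.46 ± 0.13 (adjusted p = 8.2e-07). Before recovery KRT7 was higher in WT (1.26 ± 0.18, adjusted p = 9.0e-04), and in KO cells its change was 0.25 ± 0.13 (adjusted p = 0.094). The response after recovery was the larger by 1.03 ± 0.22 in WT and 2.21 ± 0.20 in KO cells (adjusted p = 0.0018 and 2.6e-08). The genotype by treatment interaction of KRT7 in U2OS cells (-1.02 ± 0.24, adjusted p = 0.040) was lost in 10 of the 12 fits that left out a library and with own-strand counts (-0.80, adjusted p = 0.077). Its own-strand reads numbered 1.62 times those from either strand.

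KRT17 libraries of untreated AID-DIvA cells held 16.3, 15.7 and 15.9 CPM in WT and 16.6, 14.2 and 17.9 CPM in KO cells. After recovery they held 44.4, 56.2 and 50.1 CPM in WT and 86.6, 68.3 and 74.7 CPM in KO cells. The log2 changes of KRT17 were 1.66 ± 0.08 and 2.24 ± 0.11 (adjusted p = 2.3e-09 and 5.5e-07). In U2OS WT cells KRT17 went from 42.8, 40.8 and 37.2 CPM to 102, 93.6 and 97.7 CPM (1.29 ± 0.08, adjusted p = 1.5e-05). In U2OS KO cells it went from 22.4, 20.7 and 22.3 CPM to 48.4, 37.2 and 41.9 CPM, and the log2 change of 0.97 ± 0.07 was just within the fold threshold (adjusted p = 7.6e-10). KRT17 shares long identical stretches with KRT14, KRT16 and pseudogenes, so the levels of KRT14, KRT16 and KRT17 are uncertain to that extent.

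The abundant keratins of simple epithelia changed little. KRT18 was at 91.2, 90.3 and 88.4 CPM in untreated WT and 129, 120 and 118 CPM in WT AID-DIvA cells after recovery, and at 112, 105 and 113 CPM in untreated KO and 185, 161 and 164 CPM in KO cells after recovery. These log2 changes of KRT18 were 0.45 ± 0.05 and 0.62 ± 0.06 (adjusted p = 3.9e-06 and 5.5e-05), inside the fold threshold. In U2OS cells KRT18 was at 124, 93.7 and 91.2 CPM in untreated and 104, 98.0 and 101 CPM in treated WT, and at 126, 123 and 131 CPM in untreated and 124, 110 and 118 CPM in treated KO cells. Those groups overlapped, with changes of -0.02 ± 0.13 and -0.10 ± 0.05 (adjusted p = 0.90 and 0.071).

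KRT8, the partner of KRT18, did not follow it after recovery. Its libraries held 210, 216 and 219 CPM in untreated and 180, 228 and 221 CPM in treated WT AID-DIvA cells, and 177, 170 and 204 CPM in untreated and 239, 201 and 206 CPM in treated KO cells. Both pairs of groups overlapped (-0.03 ± 0.07, adjusted p = 0.81 and 0.23 ± 0.09, adjusted p = 0.058). Before recovery KRT8 was at 310, 225 and 221 CPM in untreated and 185, 182 and 178 CPM in treated U2OS WT cells, and at 187, 180 and 183 CPM in untreated and 153, 132 and 141 CPM in treated KO cells. The log2 changes were -0.46 ± 0.14 and -0.36 ± 0.05 (adjusted p = 0.024 and 7.7e-07), both within the fold threshold. KRT8 and KRT18 overlap at their starts on opposite strands, and own-strand counts were 1.05 and 1.61 times those from either strand.

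KRT80 libraries held 495, 511 and 516 CPM in untreated and 488, 581 and 594 CPM in treated WT AID-DIvA cells, and 779, 760 and 845 CPM in untreated and 793, 686 and 723 CPM in treated KO cells. Neither change passed the test (0.14 ± 0.06, adjusted p = 0.096 and -0.12 ± 0.07, adjusted p = 0.18). Before recovery KRT80 went from 430, 437 and 422 CPM to 233, 240 and 244 CPM in U2OS WT cells (-0.84 ± 0.07, adjusted p = 4.1e-05). In U2OS KO cells it fell from 761, 753 and 755 CPM to 276, 255 and 283 CPM (-1.47 ± 0.05, adjusted p = 7.2e-18). The response of KRT80 was the more negative in KO cells (interaction -0.63 ± 0.08, adjusted p = 4.7e-04). KRT10, the suprabasal type I keratin, changed by -0.62 ± 0.12 and -0.40 ± 0.07 in U2OS WT and KO cells (adjusted p = 0.0031 and 1.4e-05) and by -0.02 ± 0.07 and 0.10 ± 0.07 in AID-DIvA cells (adjusted p = 0.85 and 0.28).

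KRT81, a type II hair keratin, responded differently in the genotypes. In AID-DIvA cells its WT libraries held 56.6, 61.8 and 64.5 CPM untreated and 133, 195 and 187 CPM after recovery (log2 change 1.5 ± 0.16, adjusted p = 4.9e-04). KO libraries held 322, 315 and 410 CPM untreated and 436, 382 and 438 CPM after recovery, with overlap (0.26 ± 0.10, adjusted p = 0.072). In U2OS cells WT libraries held 63.5, 39.2 and 38.8 CPM untreated and 76.1, 76.9 and 79.1 CPM treated (0.72 ± 0.19, adjusted p = 0.015). KO libraries held 287, 271 and 274 CPM untreated and 214, 175 and 191 CPM treated (-0.51 ± 0.06, adjusted p = 6.2e-08). The interaction was -1.23 ± 0.20 in AID-DIvA cells (adjusted p = 0.0096) and -1.23 ± 0.21 in U2OS cells (adjusted p = 0.0064). The AID-DIvA interaction was lost without replicate 1 of the treated KO cells (-1.25, adjusted p = 0.064).

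Other keratins rose from very few reads and stayed low. In U2OS cells KRT78, a type II keratin of stratified epithelia, was at 0.572 CPM in treated WT and 0.299 CPM in treated KO cells, and KRT32, a hair cuticle keratin, at 0.642 and 0.610 CPM. KRT9, the keratin of palms and soles, was at 0.613 and 0.540 CPM and the simple type I keratin KRT23 at 0.474 and 0.381 CPM. Their log2 changes lay between 3.36 and 4.76 in U2OS cells, with adjusted p between 4.7e-08 and 0.0017. After recovery KRT9 was higher in WT (2.02 ± 0.43, adjusted p = 0.0016) and KRT23 in KO cells (2.63 ± 0.33, adjusted p = 2.0e-04).

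KRT33B, a type I hair keratin next to KRT34, was higher in KO AID-DIvA cells (1.67 ± 0.24, adjusted p = 5.2e-04) and in U2OS WT cells (1.08 ± 0.26, adjusted p = 0.011). The U2OS call was lost without replicate 1 of the treated cells (1.0, adjusted p = 0.052). In the other comparisons its changes were 0.95 ± 0.26 in WT AID-DIvA and 0.75 ± 0.24 in U2OS KO cells (adjusted p = 0.0091 and 0.0075). KRT12, a corneal keratin, had 0 reads in untreated and 13, 18 and 18 in treated U2OS KO libraries, at least 15.1-fold higher against a floor of 3 counts over the group. The entry ENSG00000213424.4 of KRT222 (1.11 ± 0.35, adjusted p = 0.0081) was also higher in U2OS KO cells. The count of KRT40 was higher there too (2.12 ± 0.48, adjusted p = 4.3e-04), but its libraries held 3, 4 and 4 reads untreated and 14, 11 and 28 treated from either strand, and 0, 0 and 0 against 6, 1 and 7 on its own strand. With own-strand counts KRT40 did not pass the filter. The KRT222 call was lost without replicate 2 of the untreated cells (0.86, adjusted p = 0.057) and without replicate 2 of the treated cells (0.99, adjusted p = 0.035, within the fold threshold).

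Fewer keratins were called lower. KRT14, the basal partner of KRT5, fell in WT cells, from 0.564 ± 0.0379 to 0.0677 ± 0.0277 CPM in AID-DIvA (-3.04 ± 0.34, adjusted p = 8.9e-06) and from 2.72 ± 0.328 to 0.309 ± 0.145 CPM in U2OS cells (-3.18 ± 0.32, adjusted p = 1.4e-04). In KO cells KRT14 did not pass the filter, with group means of 0.0881 to 0.131 CPM. KRT16, a wound keratin, fell in WT AID-DIvA cells from 1.62 ± 0.230 to 0.653 ± 0.229 CPM (-1.31 ± 0.23, adjusted p = 3.2e-04). Both KRT14 and KRT16 share identical stretches with the more abundant KRT17, so their low counts are uncertain. KRT83 fell in KO cells of both lines (-2.14 ± 0.61, adjusted p = 0.019 and -2.10 ± 0.44, adjusted p = 1.9e-04), at levels of 0.339 CPM or less. The count of KRT6B was lower in treated U2OS KO cells (-1.42 ± 0.42, adjusted p = 0.0047), with 10, 23 and 15 reads untreated and 6, 6 and 7 treated. On its own strand KRT6B had 0, 0 and 0 against 1, 0 and 0 reads, so this call rests on opposite-strand reads and KRT6B did not pass the filter with own-strand counts. The AID-DIvA call of KRT83 was lost without replicate 3 of the untreated cells (-1.94, adjusted p = 0.059), and that of KRT6B without replicate 2 of the untreated cells (-1.12, adjusted p = 0.054).

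Without replicate 1 of untreated U2OS WT cells, 16 rather than 12 keratins were higher in U2OS WT cells, and all 12 were among the 16. The 4 others were KRT19, KRT39, KRT40 and the entry ENSG00000213424.4 of KRT222. KRT19, a simple type I keratin, had 3, 0 and 0 reads in untreated and 4, 8 and 23 reads in treated U2OS WT libraries, with all 3 untreated reads in replicate 1, so that no fold is given against the empty libraries. The values without replicate 1 were 1.49 ± 0.41 for the KRT222 entry (adjusted p = 0.0013), 3.17 ± 0.96 for KRT39 (adjusted p = 0.0032) and 3.65 ± 0.77 for KRT40 (adjusted p = 5.0e-05). Reads of KRT40 are mostly antisense. KRT39 had 0, 1 and 1 reads untreated and 15, 3 and 13 treated from either strand. On its own strand it had 0, 0 and 0 against 6, 0 and 9.

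**Figure D3:**
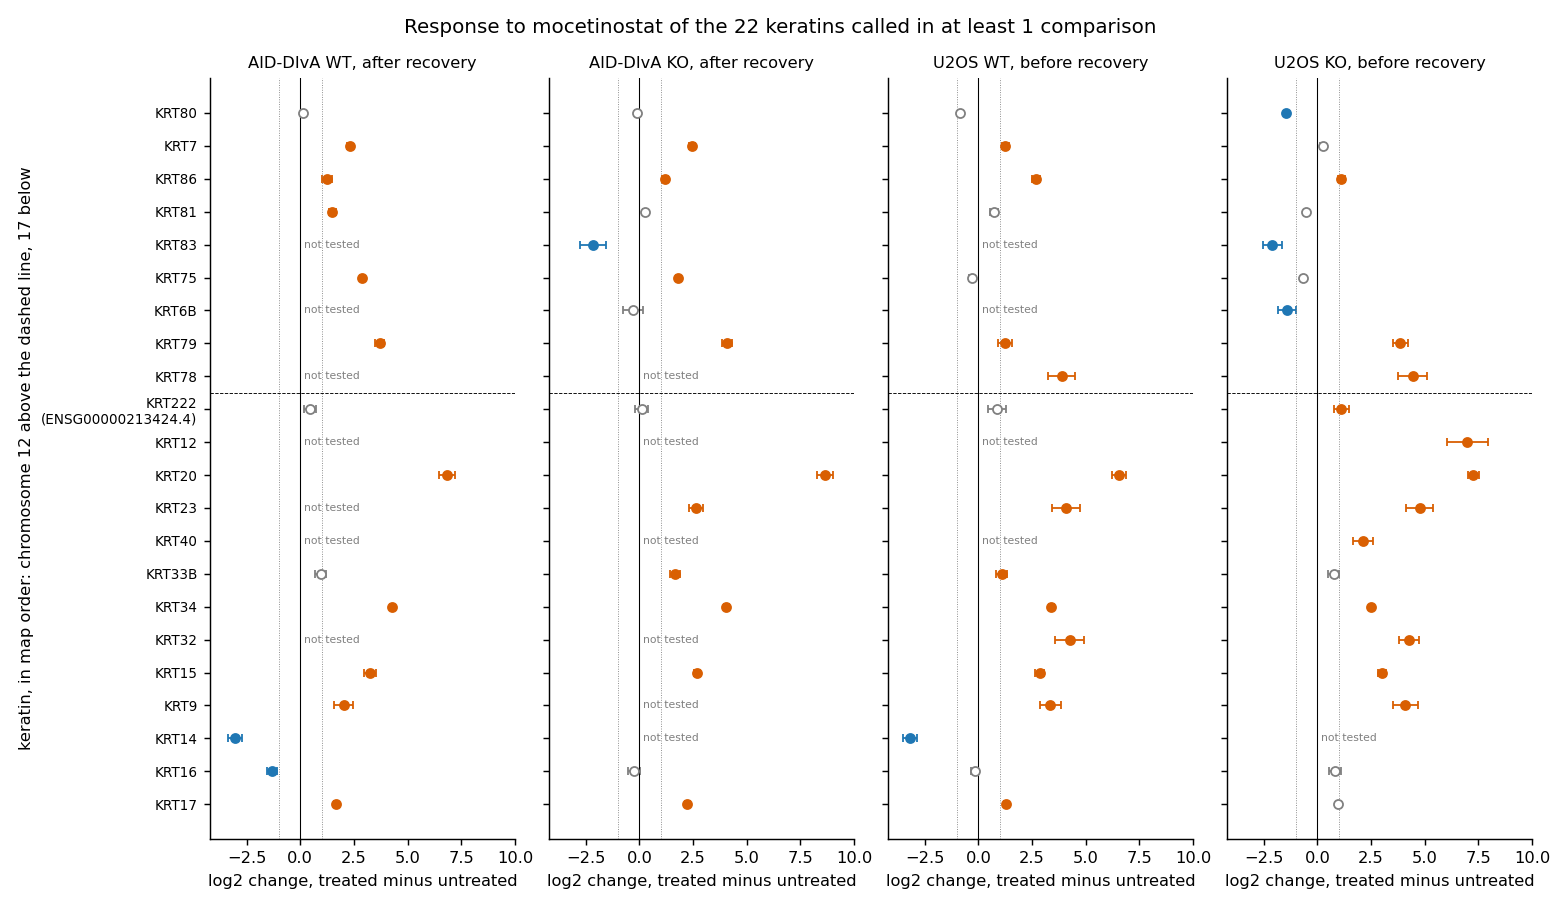
Log2 change with its SE for the 22 keratins called in at least 1 treatment comparison, in map order, with chromosome 12 above and chromosome 17 below the dashed line. Filled orange points were called higher, filled blue points lower, open points were not called, and dotted lines mark the fold threshold. KRT20 lies at 6.56 to 8.64 across the panels, where its SE bars understate the error because its untreated libraries are nearly empty. The lower calls are KRT14, KRT16, KRT80, KRT83 and KRT6B, the last from opposite-strand reads.

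Neighbours in the map were called differently. KRT34 lies between KRT33B, which was called higher in 2 comparisons and rose within the fold threshold in the others, and KRT31, which was detected in no group. KRT15, which was higher in all comparisons, lies between KRT13 and KRT19, both below detection in every group. Being below detection does not mean no response. At 0.181 CPM or less, KRT13, KRT19 and KRT31 had a higher mean in every treated group than in its control. Without the filter on low counts, KRT13 was called in every treatment comparison, KRT19 in both U2OS comparisons and KRT31 in KO AID-DIvA cells. These calls use either-strand counts. In WT AID-DIvA cells KRT13 had 2, 3 and 3 such reads untreated and 9, 4 and 10 after recovery. On its own strand it had 1, 1 and 2 against 1, 2 and 3 there, and 1, 0 and 1 against 10, 6 and 6 in KO cells. In U2OS cells its own-strand reads were 3, 0 and 0 against 7, 3 and 13 in WT, and 1, 0 and 2 against 5, 1 and 5 in KO. KRT14 fell in WT cells while KRT17, of the same neighbourhood, rose.

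Untreated KO and WT cells were compared next, to see which keratins differ with ID3 status before treatment. In AID-DIvA cells 3 of the 20 members that passed the filter were higher and 5 lower in KO cells (background 2.27% higher and 2.30% lower), and in U2OS cells 3 of 20 were higher and 4 lower (background 1.42% and 2.84%). KRT75, KRT81 and KRT86 were higher in KO cells of both lines. KRT14, KRT15, KRT16 and KRT79 were lower in KO cells of both lines. The fifth lower call in AID-DIvA cells was KRT5, whose reads were mostly antisense. These comparisons use the same untreated libraries as the treatment comparisons.

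KRT75 was higher in untreated KO cells by 2.62 ± 0.10 in AID-DIvA and 2.24 ± 0.10 in U2OS cells (adjusted p = 1.0e-11 and 3.8e-05). KRT81 was higher by 2.50 ± 0.11 and 2.55 ± 0.20 (adjusted p = 1.6e-07 and 2.6e-04). KRT86 was higher by 1.25 ± 0.20 and 1.33 ± 0.24 (adjusted p = 1.2e-04 and 0.011), and its U2OS call was lost without replicate 2 or replicate 3 of the untreated KO cells (1.26, adjusted p = 0.062 and 1.30, adjusted p = 0.058). All 3 genes are type II keratins of the same stretch of chromosome 12. KRT80, at the end of this cluster, was higher by 0.62 ± 0.05 and 0.81 ± 0.07 (adjusted p = 5.1e-08 and 2.8e-04), within the fold threshold.

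Among the lower keratins, KRT14 differed by -2.53 ± 0.30 in AID-DIvA and -4.80 ± 0.27 in U2OS cells (adjusted p = 6.4e-06 and 6.8e-05). KRT16 differed by -1.56 ± 0.19 and -1.90 ± 0.30 (adjusted p = 7.5e-06 and 0.0061), and KRT15 by -1.23 ± 0.19 and -1.34 ± 0.29 (adjusted p = 1.0e-04 and 0.019). The U2OS call of KRT15 was lost without replicate 1 or replicate 3 of the untreated KO cells (-1.16 and -1.34, both adjusted p = 0.088). KRT79 differed by -1.32 ± 0.38 and -2.93 ± 0.50 (adjusted p = 0.013 and 0.0080), and its AID-DIvA call was lost without replicate 1 or 2 of the untreated KO cells (-1.18, adjusted p = 0.057 and -1.27, adjusted p = 0.052). Group means of KRT14 and KRT79 were below 0.1 CPM in untreated KO cells. Without replicate 1 of untreated U2OS WT cells, KRT7 (1.19 ± 0.16, adjusted p = 5.3e-08) and KRT83 (1.16 ± 0.45, adjusted p = 0.039) were also called higher in U2OS KO cells, and the 7 other calls remained.

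The genotypes were also compared in treated cells. After recovery, 6 of 20 members were higher and 2 lower in KO cells (background 2.50% and 2.26%). These were KRT75 (1.55 ± 0.08), KRT81 (1.27 ± 0.14), KRT86 (1.25 ± 0.18), KRT20, KRT23 (1.93 ± 0.34) and KRT33B (1.24 ± 0.21), with KRT15 (-1.79 ± 0.23) and KRT5 lower. The KRT5 call (-1.02 ± 0.33, adjusted p = 0.048) was lost in 4 of the 6 fits that left out a library (adjusted p = 0.09 to 0.24). The adjusted p of the other calls lay between 9.0e-07 and 0.0020. Before recovery, 2 of 28 were higher and 3 lower (background 1.31% and 2.18%). KRT75 (1.91 ± 0.08, adjusted p = 7.6e-18) and KRT81 (1.32 ± 0.05, adjusted p = 8.1e-17) were higher, while KRT15 (-1.18 ± 0.10, adjusted p = 1.8e-10), KRT17 (-1.20 ± 0.07, adjusted p = 1.1e-11) and KRT14 (-1.21 ± 0.45, adjusted p = 0.036) were lower. The KRT14 libraries of the genotypes overlapped, and the call was lost without replicate 2 of treated WT cells (-0.95, adjusted p = 0.16) and without replicate 3 of treated KO cells (-0.91, adjusted p = 0.18).

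**Figure D4:**
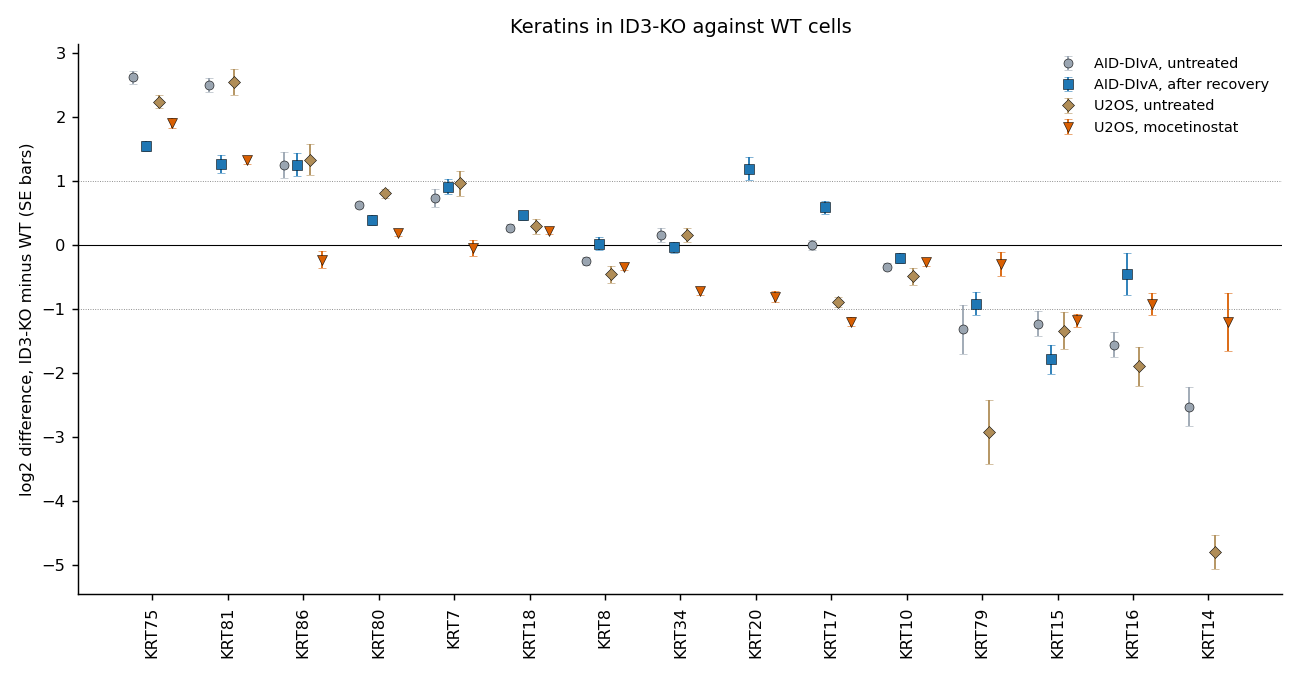
Log2 difference between ID3-KO and WT cells for 15 keratins, with SE bars, in the 4 conditions. Positive values are higher in KO cells and dotted lines mark the fold threshold. KRT75 and KRT81 lie above 1 in all 4 conditions and KRT15 below -1 in all 4, while KRT20 has values of 1.19 after recovery and -0.81 under treatment.

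The interaction tests asked whether the response to mocetinostat itself differed by genotype. In AID-DIvA cells, 1 of 24 members had a more positive and 2 a less positive log2 change in KO cells (background 0.762% and 0.451%). In U2OS cells 2 of 29 had a more positive and 5 a less positive change (background 1.10% and 1.06%). KRT81 was less positive in both. KRT75 was less positive in AID-DIvA cells (-1.08 ± 0.13, adjusted p = 4.8e-04). KRT86 was less positive in U2OS cells (-1.55 ± 0.25, adjusted p = 0.0036), together with KRT34, KRT80 and KRT7. KRT80 fell in both genotypes, and by more in KO cells (-1.47 ± 0.05 against -0.84 ± 0.07). KRT14 was more positive in both lines (3.01 ± 0.66, adjusted p = 0.033 and 3.60 ± 0.63, adjusted p = 0.0079) and KRT79 in U2OS cells (2.63 ± 0.50, adjusted p = 0.014). KRT14 fell in WT cells. In untreated KO cells it was already near the floor (0.099 and 0.0959 CPM), so a fall there could hardly be measured. KRT79 was also low in untreated U2OS KO cells (0.0609 CPM), and its difference between treated genotypes did not pass the test (-0.30 ± 0.19, adjusted p = 0.25). The KRT14 interaction in AID-DIvA cells was lost in 9 of the 12 fits that left out a library (adjusted p = 0.059 to 0.16), and in U2OS cells it was lost without replicate 2 of treated KO cells (3.41, adjusted p = 0.051). The KRT79 interaction was lost without replicate 2 of untreated KO cells (2.33, adjusted p = 0.065). Without replicate 1 of untreated U2OS WT cells, KRT17 (-0.36 ± 0.11, adjusted p = 0.035), KRT18 (-0.23 ± 0.06, adjusted p = 0.013) and KRT75 (-0.42 ± 0.11, adjusted p = 0.010) joined the less positive changes.

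The responses after and before recovery were compared within each genotype. In WT cells 9 of 25 members had the more positive change after recovery and 2 the less positive (background 20.5% and 21.7%), and in KO cells 11 of 26 and 3 (background 24.8% and 27.7%). KRT7, KRT10, KRT17, KRT18, KRT34, KRT75, KRT80 and KRT81 were more positive after recovery in both genotypes. KRT86 and KRT16 were less positive in WT cells, and KRT78, KRT12 and KRT23 in KO cells. Leaving out single libraries lost the calls of KRT81 and KRT17 in WT cells in 4 and 5 of 12 fits, and those of KRT23, KRT33B and KRT78 in KO cells in 7, 7 and 2 of 12. Without replicate 1 of untreated U2OS WT cells, the WT call of KRT81 was lost (0.49, adjusted p = 0.077, against 0.77) and KRT8 was called (0.25 ± 0.10, adjusted p = 0.038). With own-strand counts, the KO call of KRT12 was lost (-2.09, adjusted p = 0.31, against -4.79). A large share of all genes passed this test.

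Genes that work with keratins were examined as lists. Of 18 desmosome and keratin linker genes, JUP, the plakoglobin of cell junctions, was higher in all 4 treatment comparisons (log2 changes 1.30 ± 0.17 to 2.12 ± 0.06), and its treated level reached 257 ± 3.95 CPM in U2OS WT cells. EPPK1, a linker of keratin filaments, was higher in 3 of the 4 (1.36 ± 0.25 to 2.52 ± 0.28), and EVPL in the 2 U2OS comparisons. PKP3, a desmosomal plakophilin, fell in U2OS cells (-1.53 ± 0.15 and -1.84 ± 0.07) and changed by 0.07 ± 0.07 and 0.30 ± 0.12 after recovery (adjusted p = 0.47 and 0.072). Of the list members tested, 1 of 12 was higher in WT and 2 of 11 in KO AID-DIvA cells (background 4.86% and 4.90%), and 3 of 12 in each U2OS comparison (background 13.6% and 14.6%), where 1 was lower. With lists this short these counts are near the background, and the median log2 change was between -0.05 and 0.12. JUP was also lower in KO than in WT cells in all conditions but the fold threshold was missed after recovery (-0.98 ± 0.15, adjusted p = 0.0016).

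Of 15 other intermediate filament genes, 13 were tested in each treatment comparison. After recovery 2 were higher in each genotype (background 4.86% in WT and 4.90% in KO cells). Before it 4 were higher in WT and 5 in KO cells (background 13.6% and 14.6%). The median log2 change of the list lay between -0.03 and 0.16 in the 4 treatment comparisons. The muscle filament gene DES and the neuronal gene PRPH were higher in all 4 (2.69 ± 0.31 to 4.63 ± 0.21 for DES and 1.21 ± 0.40 to 4.99 ± 0.23 for PRPH). NEFM and NEFH were higher in both U2OS comparisons and NEFL in U2OS KO cells (1.16 ± 0.05). The lamin gene LMNB1 fell in U2OS cells (-1.18 ± 0.08 and -1.12 ± 0.05), and GFAP fell in WT AID-DIvA cells. DES and PRPH reached 4.32 and 4.34 CPM, in the range of KRT20.

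Of 20 epithelial transcription factor genes, 7 of 15 tested were higher in U2OS WT and 6 of 15 in U2OS KO cells (background 13.6% and 14.6%), and none was lower. After recovery 1 of 11 was higher in WT cells, and 2 of 13 were higher and 1 lower in KO cells (background 4.86% and 4.90% higher), which is near the background. ELF3 was higher in all 4 comparisons, by 5.48 ± 0.37 and 3.80 ± 0.32 before and by 2.20 ± 0.27 and 1.90 ± 0.39 after recovery. GRHL1 went from 3.54 ± 0.474 to 23.8 ± 0.723 CPM in U2OS WT cells and from 5.69 ± 0.363 to 28.1 ± 0.431 CPM in KO cells, and HNF4A, a factor of liver and gut, to 1.35 ± 0.224 and 1.21 ± 0.161 CPM. The median log2 change of the factors tested was 1.08 and 0.86 before recovery and 0.33 and 0.25 after.

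Some markers of epithelium were also higher in treated cells. Of 12 such genes, between 5 and 8 were detected per group, and their summed level was 39.0 to 51.4 CPM in untreated and 56.0 to 87.8 CPM in treated libraries, with no overlap. The defining genes CLDN3, CLDN7, GRHL2 and SPINT1 were below detection in every group. CLDN4, a tight junction gene, was higher in all 4 comparisons (1.04 ± 0.10 to 2.02 ± 0.10). ST14 and ESRP1 were higher in the U2OS comparisons, and CLDN7 was lower in U2OS WT cells (-1.46 ± 0.36, adjusted p = 0.011). In all, 1 of 9 and 1 of 8 markers tested were higher after recovery (background 4.86% and 4.90%), and 3 of 10 and 3 of 9 before it (background 13.6% and 14.6%). With a list this short these counts are near the background. CDH1, PRSS8 and ESRP2 were called in none of the 4 comparisons. Their part in the keratin results was not tested. In bulk RNA more cells with a transcript and more transcript per cell cannot be told apart.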

How the data were processed

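RNA was sequenced from 24 libraries, 3 per group. Per the paper's methods and the labels, the authors made stranded, paired-end total RNA libraries, aligned reads to hg19 with STAR, and deposited unnormalized read counts per gene from featureCounts, in which reads that overlap several genes can be lost. Versions are not given in the sources used here. Groups were taken from the sample titles. Counts from either strand were used, and those of the own strand served as an alternative.

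CPM were computed from counts, library totals (37878751 to 76906266) and TMM factors over all libraries. Each comparison was fitted in R 4.3.3 with edgeR 4.0.16 (filterByExpr, TMM, robust quasi-likelihood test, Benjamini-Hochberg adjustment over all genes tested) on its own 6 libraries, and on 12 for interactions and for the difference between stages. Calls needed adjusted p below 0.05, and for treatment and genotype a log2 change beyond 1. Alternatives were DESeq2 1.42.0, other filters, detection limits and scalings, a replicate block and leaving out each library. The test was checked on simulated data. Intervals and floors cover counting error only. The SE of a log2 change is its absolute value divided by the square root of the F statistic of the test. This understates the error where a group has almost no reads. By rule, keratins called in a treatment comparison or at 1 CPM or more in a group were described with values, the 6 most abundant and KRT20 in every library, and at most 4 called genes of each other list. The members and lists were chosen with earlier results of these data known.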

Additional observations from a re-analysis of the deposited data

Results flagged for a closer look

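Tests of a difference between the responses of the genotypes passed for several keratins, with log2 differences given as KO minus WT. In AID-DIvA cells these were KRT81 (-1.23), KRT75 (-1.08) and KRT14 (3.01). In U2OS cells they were KRT80 (-0.63), KRT7 (-1.02), KRT86 (-1.55), KRT81 (-1.23), KRT34 (-0.88), KRT79 (2.63) and KRT14 (3.60).

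Tests of the response after recovery in AID-DIvA cells minus the response before recovery in U2OS cells also passed, where stage and line label cannot be told apart. In WT cells the differences were KRT75 3.19, KRT79 2.45, KRT7 1.03, KRT80 0.97, KRT34 0.86, KRT81 0.77, KRT10 0.60, KRT18 0.47 and KRT17 0.36, with KRT86 at -1.45 and KRT16 at -1.14. In KO cells they were KRT75 2.44, KRT7 2.21, KRT34 1.54, KRT80 1.35, KRT17 1.26, KRT33B 0.92, KRT81 0.77, KRT18 0.72, KRT8 0.58 and KRT10 0.50, with KRT23 at -2.13 and KRT78 at -3.38. The entry ENSG00000264058.1 of KRT222, nearly all antisense reads, had 0.62. The value of KRT12 (-4.79) depends on the prior count, because 1 group had no read.

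Among the pseudogenes left out of the members, KRT121P was at 0.982 CPM in treated KO AID-DIvA cells after recovery and at 0.310 CPM in their untreated control. KRT42P was at 0.514 CPM in treated and 0.163 CPM in untreated U2OS KO cells.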

How the results depend on the processing

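Of 114 calls of single keratins, 93 kept their side of the threshold in every setting tested, none reversed, and 76 of 1609 settings compared lost a call. Calls of genes that did not pass a setting's filter were not compared there, which with own-strand counts applied to KRT6B, KRT40, KRT5, the antisense entry of KRT222 and KRT14 between treated U2OS genotypes. Without a filter on low counts, 20 keratins were called in WT and 17 in KO AID-DIvA cells and 24 in U2OS WT cells on treatment, and 5 in the AID-DIvA interaction. With at least 10 counts in every library, 7 were called in KO AID-DIvA, 8 in U2OS WT and 5 in U2OS KO cells on treatment, and 5 between untreated AID-DIvA genotypes, since fewer genes were tested. With no fold threshold, 23 were called in U2OS KO cells on treatment, and between genotypes 14 in untreated and 13 in treated AID-DIvA and 11 in untreated and 14 in treated U2OS cells. At 0.1 CPM, 20 keratins were detected in untreated WT, 25 in treated WT and 27 in treated KO AID-DIvA cells, and 20 in untreated WT, 30 in treated WT and 31 in treated KO U2OS cells.

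Leaving out single libraries gave 12 to 14 treatment calls in WT and 10 to 13 in KO AID-DIvA cells, and 13 to 18 in WT and 14 to 18 in KO U2OS cells. Genotype calls ranged from 7 to 8 and 7 to 9 in untreated and treated AID-DIvA and from 5 to 9 and 4 to 7 in U2OS cells. Interactions gave 2 to 4 and 5 to 10, and the stages 9 to 13 in WT and 12 to 17 in KO cells.

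Same-numbered samples did not deviate together over all genes (correlations of -0.12 to 0.05), so no pairing by replicate number was visible. A weak pairing, or one limited to few genes, is not excluded by these correlations. With the replicate number as a block, treatment calls numbered 12, 11, 13 and 15 and genotype calls 8, 7, 6 and 6, with 2 and 6 interactions and 11 and 15 stage differences. Genes with few reads limit these counts, and at these depths a member without reads may still be transcribed below the limit.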
